A study of Mus musculus with 28 samples.

Results

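The comparison described here set kidney macrophages of Rhbdf2-/- mice against those of wild-type (WT) mice, with 3 libraries a group. These 6 libraries, chosen by their genotype label, are part of 28 in the series, of which 12 are of sorted macrophages. All mice were C57BL/6 females of 7 to 9 months, and littermates. The Rhbdf2-/- and WT groups both had intact Fcgr2b. Macrophages were sorted as CD45+F4/80hiCD11b+Ly6G-Ly6C- cells after collagenase B digestion and a Percoll gradient, and their RNA was amplified with SMART-Seq v4. The other macrophage groups, Fcgr2b-/- and Fcgr2b-/- Rhbdf2-/- (double mutant), had 3 libraries each. The titles of the double-mutant libraries carry the short name of the Rhbdf2 knockout alone, and the genotype label was followed. The labels name neither the deleted part of the gene nor whether each library came from a separate mouse. The p-values therefore measure the spread between these libraries, which may be technical.

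Rhbdf2 encodes iRhom2, a catalytically inactive rhomboid protein of the endoplasmic reticulum and cell surface. iRhom2 escorts the metalloprotease ADAM17 out of the endoplasmic reticulum and stays with it at the cell surface, where FRMD8 keeps the complex from being degraded. ADAM17 cuts membrane proteins, among them the TNF precursor, both TNF receptors and several ligands of the EGF receptor, and myeloid cells depend on iRhom2 more than on its relative iRhom1 for this step. This regulation acts on the protein, so messenger RNA shows only what the cells transcribed. F4/80hi cells are the resident macrophages of the kidney, known for complement, Fc receptor and antigen presentation genes.

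The libraries held 30850689 to 34869755 reads in the 10523 listed genes. Levels are given as CPM, read counts scaled to the library size that the authors' values imply, which differs from these totals. A gene with no read is listed at 0.03 CPM, since the authors' values carry a small prior count. Defining macrophage markers were high in all 6 libraries, with Csf1r, the CSF1 receptor, at 3160 to 3740 CPM and Emr1, which encodes F4/80, at 2320 to 3280 CPM. Itgam, which encodes CD11b, was at 104 to 223 CPM. Cd74, the invariant chain of MHC class II, took 13.3% to 17.1% of each library. Tubule transcripts were also present, with proximal tubule markers summing to 2530 to 8130 CPM and distal nephron markers to 2024 to 8809 CPM. WT replicate 2 stood apart on the first principal component, which held 43.5% of the variance, and Rhbdf2-/- replicate 3 on the second, which held 24.3%. Both libraries also had the highest summed handling-stress genes of their group, at 6095 and 5026 CPM against 2065 to 2648 CPM in the other 4.

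Loss of Rhbdf2 was accompanied by few called differences, and the largest lay next to Rhbdf2 itself on chromosome 11. St6galnac1, a sialyltransferase that adds sialic acid to O-linked sugar chains, was nearly undetected in WT macrophages and was at about 31 CPM in every Rhbdf2-/- library. The neighbouring pseudogene Gm11735 behaved the same way at a lower level. These 2 genes were the only ones of 10523 called at an adjusted p below 0.05 (limma with Benjamini-Hochberg adjustment, 0.019% of the genes tested), and both rose. An unadjusted p below 0.05 was found for 339 genes, 3.22% of those tested, where 526 would be expected by chance, with 221 higher and 118 lower. In the authors' deposited table of the same comparison, 0 genes had an FDR below 0.05, 323 had a p below 0.05, and the smallest FDR was 0.102. With voom weights on the recovered reads the count was also 0, with 347 genes at an unadjusted p below 0.05. With only these 6 libraries in the fit it was 5, and all 5 lay within 2 Mb of Rhbdf2.

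Rhbdf2 itself stayed detectable. WT libraries had 16.2, 21.0 and 25.0 CPM and Rhbdf2-/- libraries 13.4, 15.5 and 13.9 CPM (WT replicates in the order a, b and 2, Rhbdf2-/- replicates in the order a, b and 3, here and below). The groups did not overlap, as was the case for 10.4% of all genes, and the difference of the log2(CPM+1) means was -0.49 (95% interval -0.95 to -0.03). Its unadjusted p was 0.0393 and its adjusted p 1.00 in limma, so it was not called. Since no source used here states the deleted part of the gene or which exons were counted, this level does not check the genotype. In the libraries labelled Fcgr2b-/- and double mutant, the same contrast gave -0.54, from 25.2 to 43.3 CPM in the former and 18.1 to 26.6 CPM in the latter (adjusted p = 0.0743).

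The genes around Rhbdf2 are described next, by their distance from it. In mm10/GRCm38, with positions counted from 1, Rhbdf2 lies on chromosome 11 from 116598165 to 116627019, on the minus strand. St6galnac1 lies 0.138 Mb further along, from 116765025 to 116775507 and also on the minus strand. Its reads numbered 0, 3 and 0 in WT and 1027, 958 and 1013 in Rhbdf2-/- libraries. Scaled by the library sizes that the CPM values imply, the Rhbdf2-/- total was 1058 times as high (95% exact interval 362 to 5133, counting error only). On the log2(CPM+1) scale the difference was 4.91 (SE 0.39, adjusted p = 0.000284 in limma). Gm11735, an unprocessed pseudogene between Rhbdf2 and St6galnac1, had 0 reads in every WT library and 171, 188 and 202 reads in Rhbdf2-/- libraries. That is at least 63.9-fold higher than a floor of 3 reads per library. Its log2(CPM+1) difference was 2.72 (SE 0.28, adjusted p = 0.00243 in limma). As a pseudogene it may share reads with a near-identical copy, which the counting could divide in an unknown way.

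**Figure D1:**
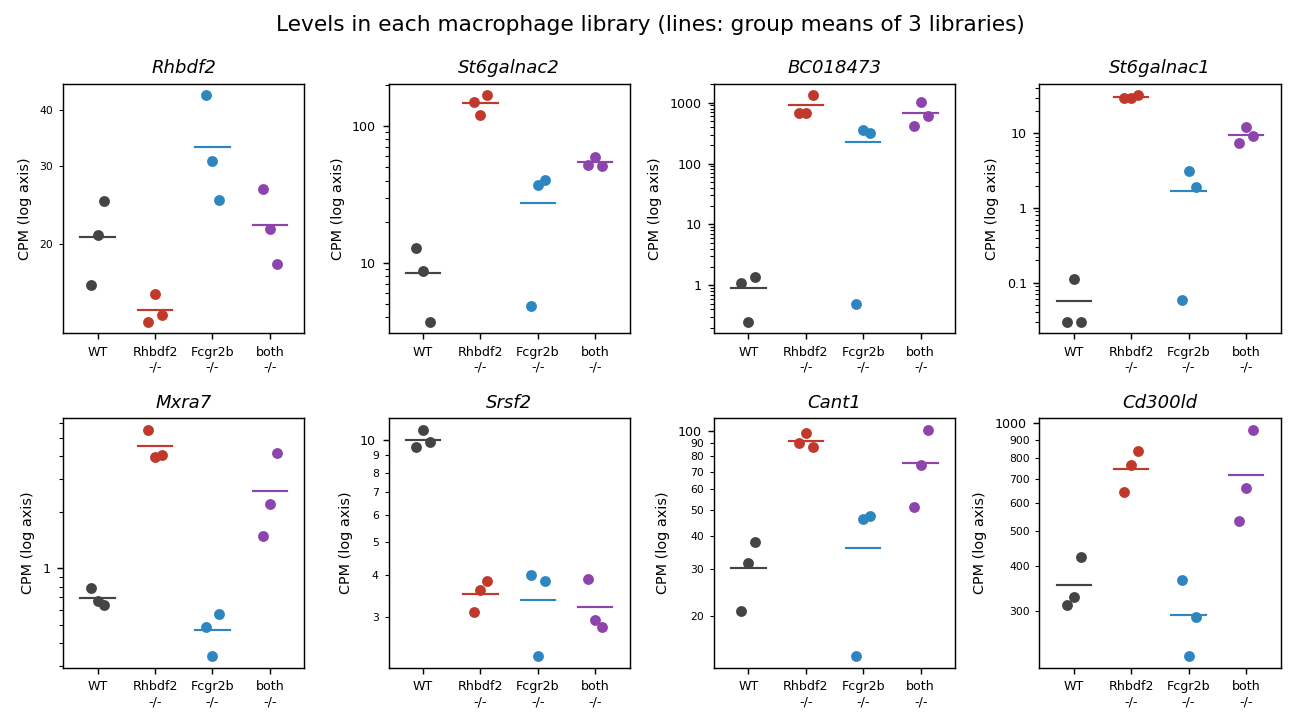
CPM in each of the 12 macrophage libraries (log axis, points) with the mean of each group of 3 (lines) for Rhbdf2 and 7 genes on the same chromosome. BC018473 lies between 0.252 and 1.36 CPM in WT and between 677 and 1340 CPM in Rhbdf2-/- libraries, while Srsf2 is lower in each Rhbdf2-/- library than in any WT library.

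Further neighbours differed as widely without passing the adjustment. St6galnac2, a second sialyltransferase of the same family and 0.0483 Mb from Rhbdf2, was at 12.8, 8.71 and 3.72 CPM in WT and at 150, 121 and 169 CPM in Rhbdf2-/- macrophages. All 3 Rhbdf2-/- values lay far above the WT values, and the mean was 17.4 times as high. The log2(CPM+1) difference was 4.09 (SE 0.60, adjusted p = 0.0645 in limma), and it passed with only these 6 libraries in the fit (adjusted p = 0.0189). BC018473, which GENCODE classes as antisense RNA, gave the widest difference of all genes on the log2(CPM+1) scale. WT libraries had 1.08, 0.252 and 1.36 CPM and Rhbdf2-/- libraries 683, 677 and 1340 CPM, with no value near the other group. Scaled by the library sizes that the CPM values imply, its total was 1046 times as high (95% exact interval 849 to 1304, counting error only). The log2(CPM+1) difference of 8.86 (95% interval 5.51 to 12.21) had an adjusted p of 0.115 when all 12 libraries were fitted and 0.000108 with these 6 alone. The fit of 12 also holds the Fcgr2b-/- libraries, in which BC018473 ran from 0.487 to 361 CPM. BC018473 and Gm11709 fall outside the rule for named genes and were chosen after their values were seen.

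Mxra7, which encodes a membrane protein associated with matrix remodelling and lies 0.176 Mb from Rhbdf2, was at 0.79, 0.668 and 0.635 CPM in WT and 5.51, 3.96 and 4.03 CPM in Rhbdf2-/- libraries (difference 1.69, SE 0.29, adjusted p = 0.109 in limma). The non-coding transcript 1810032O08Rik, which hosts small nucleolar RNAs, was at 12.1 to 13.8 CPM against 26.5 to 31.2 CPM. Its exons share 497 bases with St6galnac2 on the other strand in GENCODE, and no source used here says whether counting followed the strand, so their reads cannot be told apart. Other close neighbours had lower values. Srsf2, an SR-protein splicing factor 0.223 Mb away, was at 9.50, 10.7 and 9.84 CPM in WT and at 3.11, 3.6 and 3.84 CPM in Rhbdf2-/- libraries (difference -1.29, SE 0.21, adjusted p = 0.109 in limma). Srsf2 exons overlap those of Mfsd11, a transporter-like gene, by 288 bases and those of Mettl23, a methyltransferase gene, by 460 bases on the other strand. Mfsd11 was higher (80.1 to 85.4 CPM against 90.3 to 116 CPM) and Mettl23 lower (27.7 to 31.4 CPM against 22.5 to 25.0 CPM), neither past the adjustment.

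**Figure D2:**
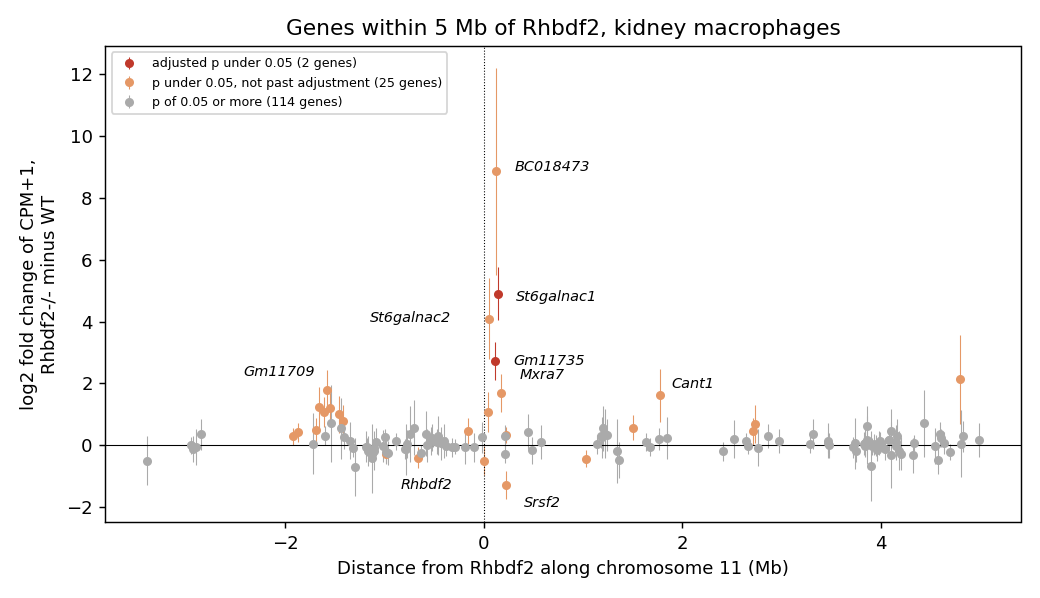
log2 fold change of CPM+1 (Rhbdf2-/- minus WT, with 95% intervals) of the 141 listed genes within 5 Mb of Rhbdf2, against their distance from it along chromosome 11. The widest differences sit just to the right of Rhbdf2, and a second group with several higher genes lies about 1.5 Mb to the left.

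The concentration of small p-values around Rhbdf2 can be counted. Of 42 listed genes within 1 Mb, Rhbdf2 included, 12 (28.6%) had an unadjusted p below 0.05, 8 higher and 4 lower. Within 5 Mb it was 27 of 141 (19.1%), on the rest of chromosome 11 it was 36 of 764 (4.71%), and on the other chromosomes 276 of 9618 (2.87%). The share of genes whose groups did not overlap went the same way, with 15 of 42 within 1 Mb and 10.0% on other chromosomes. Of the 12 smallest p-values of all genes, 9 belonged to genes within 5 Mb. Neighbouring genes are not independent of each other, so these shares are a description. Which of these differences follows from the missing iRhom2 protein and which from the altered chromosome region was not tested, since both go with the genotype.

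About 1.5 Mb on the other side lies the Cd300 cluster, which encodes paired activating and inhibitory receptors of myeloid cells that bind lipids. Cd300ld was at 312, 328 and 424 CPM in WT and 642, 764 and 835 CPM in Rhbdf2-/- macrophages (difference 1.08, 95% interval 0.58 to 1.57). Cd300lh was at 0.973 to 1.45 CPM against 3.84 to 4.58 CPM, Cd300lb at 6.07 to 17.2 CPM against 19.9 to 24.7 CPM, and Cd300lf at 0.907 to 2.90 CPM against 4.02 to 5.04 CPM. Cd300a, an inhibitory member of the cluster, was at 247 to 327 CPM against 353 to 469 CPM. None of the 5 passed the adjustment (limma). The groups did not overlap for any of them, as for 28.4% of genes within 5 Mb of Rhbdf2 and 10.4% of all genes. Cd300ld, Cd300lh, Cd300lb and Cd300lf were also among the 20 genes with the smallest p, which were ranked on the same values. Cd300e overlapped between groups. The predicted gene Gm11709 in the same cluster was at 3.94 to 4.18 CPM in WT and 16.2 to 16.7 CPM in Rhbdf2-/- libraries (adjusted p = 0.109, and 0.00685 with only these 6 libraries). The cluster's genes are similar in sequence, and no source used here says how reads shared between copies were counted.

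Promoters of Cd300lb, Cd300ld and Cd300lf, cluster members that were higher, were searched for a motif. Those of Cd300ld and Cd300lf are shown because they hold it. They run from 250 bases before to 50 bases after the start site (RefSeq, GRCm38.p6, minus strand, 5′ to 3′), at chr11:114989837-114990136 for Cd300ld and chr11:115133943-115134242 for Cd300lf. Capitals mark GAGGAAGT, the core of the binding motif of PU.1, a factor that sets up the myeloid lineage. The motif was searched on both strands and is held by 3.20% of 32851 promoters of the same length. The Cd300lb promoter does not hold these letters, though Cd300lb was also higher. Whether the motif bears on these levels was not tested.
Cd300ld: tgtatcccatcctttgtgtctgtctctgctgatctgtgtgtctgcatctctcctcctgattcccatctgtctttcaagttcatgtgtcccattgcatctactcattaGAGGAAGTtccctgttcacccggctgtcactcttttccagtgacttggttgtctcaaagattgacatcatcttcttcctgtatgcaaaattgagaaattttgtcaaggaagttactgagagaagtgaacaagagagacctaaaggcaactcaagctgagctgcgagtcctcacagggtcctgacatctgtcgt
Cd300lf: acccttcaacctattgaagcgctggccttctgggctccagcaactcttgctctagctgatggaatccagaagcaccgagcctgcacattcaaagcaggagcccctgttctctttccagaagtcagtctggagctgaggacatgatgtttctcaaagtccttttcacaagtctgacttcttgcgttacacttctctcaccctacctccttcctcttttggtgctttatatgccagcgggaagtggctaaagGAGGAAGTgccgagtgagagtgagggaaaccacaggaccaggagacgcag

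Beyond the genes already described, the smallest p-values belonged to genes of several kinds, and none passed the adjustment. Among the 20 named genes with the smallest p, 12 were on chromosome 11, 10 within 5 Mb of Rhbdf2, 18 were higher and 2 lower in Rhbdf2-/- macrophages. Vnn3, of the vanin family of pantetheine-cleaving enzymes (chromosome 10), was at 18.3, 17.3 and 13.8 CPM in WT and 40.0, 52.0 and 34.9 CPM in Rhbdf2-/- libraries (difference 1.30, SE 0.22, adjusted p = 0.109 in limma). Coro2a, an actin-binding coronin (chromosome 4), was at 5.06, 6.85 and 10.1 CPM against 39.2, 42.1 and 75.6 CPM, a mean 7.12 times as high (adjusted p = 0.408). The groups did not overlap for either gene.

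Some MHC class I heavy chain genes were also near the top by p, none past the adjustment and with no list of them tested. H2-D1, a classical class I gene (chromosome 17), was at 490 to 539 CPM in WT and 724 to 837 CPM in Rhbdf2-/- macrophages (difference 0.57, 95% interval 0.31 to 0.84, adjusted p = 0.408 in limma). H2-K1, the other classical gene, was at 2440 to 2630 CPM against 3570 to 4190 CPM, and H2-Q4 at 9.99 to 11.8 CPM against 15.9 to 18.2 CPM. These latter 2 were chosen after their values were seen, and class I genes are near-identical copies whose reads can be counted under each other. Further genes of the 20 were P2rx4, an ATP-gated ion channel (58.9 to 67.1 against 82.4 to 86.9 CPM), Relt, of the TNF receptor superfamily (8.12 to 9.14 against 15.1 to 15.5 CPM), and Per1, a circadian clock gene (6.98 to 13.0 against 25.0 to 47.2 CPM). Snx8, a sorting nexin, Pold4, a DNA polymerase subunit, Arhgap25, and Cant1, a calcium-activated nucleotidase 1.78 Mb from Rhbdf2, completed the higher genes. Cant1 was at 20.8, 31.6 and 38.0 CPM in WT and 90.1, 98.2 and 86.7 CPM in Rhbdf2-/- libraries (difference 1.61, SE 0.40, adjusted p = 0.917). The lower genes were Srsf2 and Lig3, a DNA ligase (12.8 to 15.0 against 7.74 to 11.1 CPM). All 20 had groups that did not overlap, against 10.4% of all genes, but they were ranked on the same values.

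The machinery around iRhom2 was at like levels in both groups. Adam17 was at 211, 198 and 245 CPM in WT and 217, 242 and 216 CPM in Rhbdf2-/- macrophages, and the groups overlapped. Its difference was 0.05 with a 95% interval of -0.21 to 0.31. Rhbdf1, which encodes iRhom1, the relative that can stand in for iRhom2, was at 6.72 to 9.06 CPM against 5.75 to 8.62 CPM (difference -0.20, interval -0.65 to 0.26). Per kilobase of exon, Rhbdf2 was at 3.92 CPM and Rhbdf1 at 1.51 CPM in WT cells. Frmd8 was at 59.1 to 72.0 CPM against 52.7 to 64.0 CPM (difference -0.11, interval -0.51 to 0.30). Of 14 listed members of the machinery list, which also holds ADAM10, the maturation protease furin, TIMP inhibitors and TspanC8 tetraspanins, 0 were called and 13 had an interval within a 2-fold change. Their median difference was -0.06, against 0.01 over all genes. Timp3, the main natural inhibitor of ADAM17, was the exception, with an interval of -0.57 to 1.25 at 5.39 to 17.4 CPM.

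**Figure D3:**
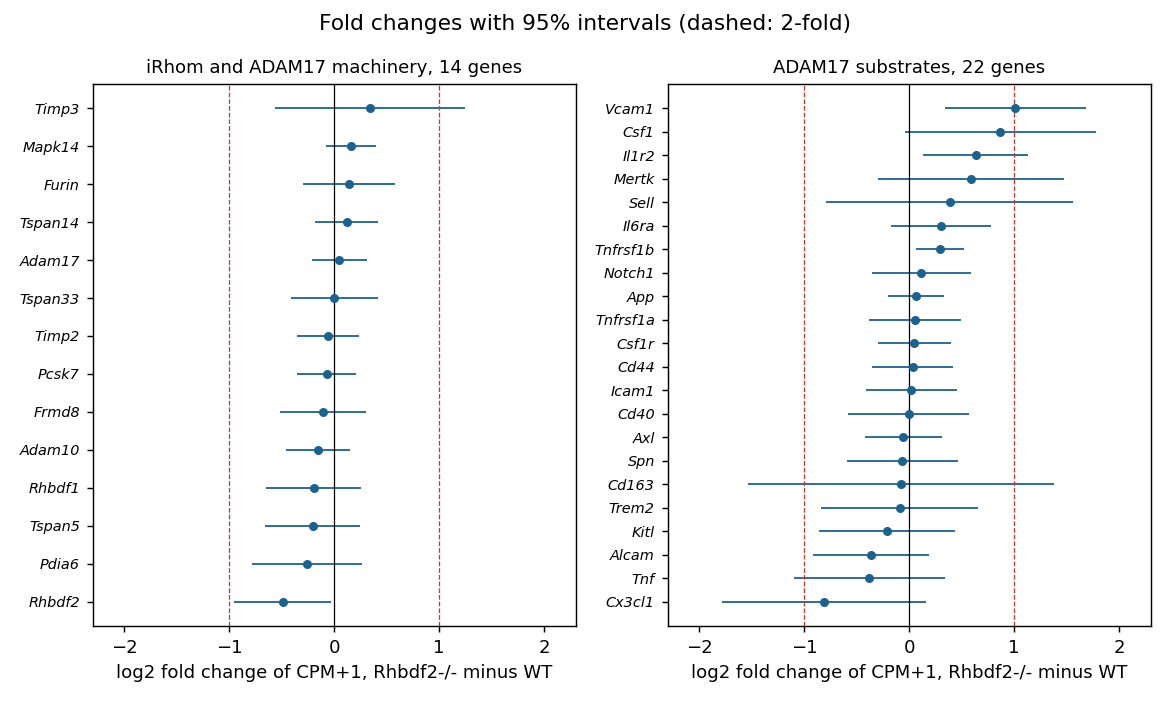
log2 fold change of CPM+1 (points) with 95% intervals (bars) for the listed genes of the iRhom and ADAM17 machinery and for listed ADAM17 substrates, Rhbdf2-/- minus WT; dashed lines mark a 2-fold change. Intervals of 13 of 14 machinery genes and 14 of 22 substrate genes lie between the dashed lines, and those of Vcam1, Il1r2 and Tnfrsf1b lie above 0.

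Transcripts of ADAM17 substrates were also without a called member, 0 of 22 listed, and had a median difference of 0.04. Tnf, the cytokine whose release depends on iRhom2, was at 16.4, 18.7 and 34.6 CPM in WT and 15.0, 17.4 and 17.9 CPM in Rhbdf2-/- libraries. The groups overlapped, and the high value was that of WT replicate 2. The difference was -0.38 with an interval of -1.10 to 0.34, so a 2-fold fall lies within it. Of the 22, 3 had an unadjusted p below 0.05 (3.22% of all genes did), all higher and none past the adjustment. Vcam1, an adhesion receptor for leukocyte integrins, was at 343 to 364 CPM in WT and at 684, 811 and 660 CPM in Rhbdf2-/- macrophages. The groups did not overlap, and the difference was 1.01 (interval 0.34 to 1.68, adjusted p = 1.00 in limma). Tnfrsf1b, the second TNF receptor, was at 297 to 318 CPM against 375 to 384 CPM (difference 0.29, interval 0.06 to 0.52). Il1r2, the decoy receptor for interleukin-1, was at 16.8 to 22.4 CPM against 23.3 to 40.1 CPM (difference 0.63, interval 0.13 to 1.13). Tnfrsf1a, the first TNF receptor, was at 232 to 246 CPM against 238 to 263 CPM (difference 0.06, interval -0.38 to 0.49).

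Of the EGF receptor family and its ligands, 5 of 13 genes were listed, and 0 were called. Hbegf, Areg, Ereg and Tgfa were not analysed here. Egfr was at 5.53, 4.55 and 2.24 CPM in WT and 3.90, 2.58 and 7.71 CPM in Rhbdf2-/- libraries (difference 0.13, interval -0.70 to 0.95). Egf, a product of the distal tubule, was at 324 to 1320 CPM against 523 to 553 CPM and is itself a member of the distal nephron markers summed below. Early genes of EGFR and ERK signalling, 14 of them listed, had 0 called. Ier3, an immediate early gene, had the smallest p of them, with 40.7, 40.7 and 26.7 CPM in WT and 22.6, 21.9 and 15.8 CPM in Rhbdf2-/- libraries (difference -0.80, interval -1.53 to -0.07, adjusted p = 1.00 in limma). Dusp6, the phosphatase induced by ERK, was at 288 to 397 CPM against 404 to 475 CPM.

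Inflammatory and macrophage functions were described with further lists. In the TNF and NF-kB response list, 0 of 29 listed genes were called and the median difference was 0.08. Nfkbia, the inhibitor that NF-kB itself induces, was at 58.3 to 104 CPM in WT and 69.1 to 240 CPM in Rhbdf2-/- libraries, and Tnfaip2 at 8.17 to 22.9 CPM against 5.71 to 9.86 CPM. Of 37 interferon-stimulated genes 0 were called, with a median of -0.02. Mx1, an antiviral GTPase, was at 77.1 to 123 CPM against 66.6 to 99.4 CPM, while Gbp5, an interferon-inducible GTPase, ran from 18.8 to 115 CPM and from 58.4 to 197 CPM within the groups.

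All 12 listed MHC class II genes had differences above 0, with a median of 0.21, but 0 were called and 7 had an interval within a 2-fold change. H2-Ab1, a class II beta chain, was at 12900 to 16500 CPM against 14800 to 26300 CPM. Of all genes, 5416 of 10523 were above 0, and genes of the class II list share their regulation, so they are not independent. All 9 listed Fc receptor genes were also above 0 (median 0.19) with 0 called, and all 9 intervals lay within a 2-fold change. Fcgrt, the neonatal Fc receptor that recycles IgG, was at 636 ± 11.3 CPM (SD, n = 3) against 799 ± 27.3 CPM, with a difference of 0.33 (interval 0.03 to 0.63). Fcgr2b, the inhibitory Fc receptor deleted in other groups of the series, was at 539, 540 and 715 CPM against 612, 649 and 715 CPM (difference 0.15, interval -0.21 to 0.50).

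Complement, chemokine, Toll-like receptor, lipid and lysosome, repair and cell cycle lists held 0 called genes of 16, 23, 20, 25, 17 and 19 listed. Their medians lay between 0.07 and 0.19. C1qa, a subunit of complement C1q, was at 2370 to 2750 CPM against 2750 to 3020 CPM. C5ar2, the second C5a receptor, was at 101 to 125 CPM against 146 to 157 CPM (difference 0.44, interval 0.02 to 0.86). Cxcr4, the receptor for CXCL12, was at 8.30, 9.65 and 14.3 CPM against 23.6, 19.4 and 21.2 CPM (difference 0.96, interval 0.38 to 1.54). Cd9, a tetraspanin, was at 207, 176 and 193 CPM against 137, 134 and 96.2 CPM (difference -0.66, interval -1.17 to -0.15). For both the groups did not overlap, and both had an adjusted p of 1.00 in limma.

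**Figure D4:**
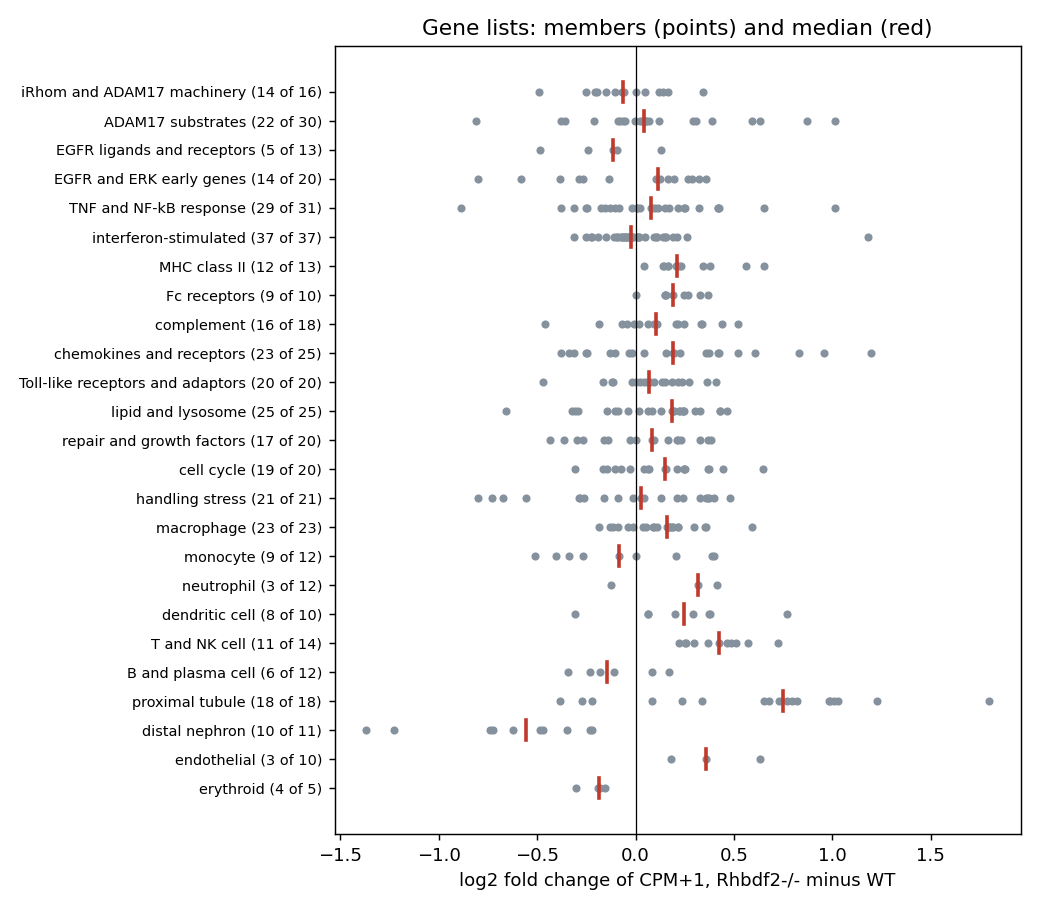
log2 fold change of CPM+1 (Rhbdf2-/- minus WT) of each listed member (grey points) and the median (red) of the lists with 3 or more listed genes; brackets give listed and total members. Proximal tubule markers have a median of 0.75 and distal nephron markers one of -0.55, while the pathway lists lie between -0.12 and 0.21.

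Proximal tubule and distal nephron markers had medians further from 0 than the pathway lists. Of 18 proximal tubule markers, 15 were higher in Rhbdf2-/- libraries, with a median of 0.75. An unadjusted p below 0.05 (limma) was found for 3 of the 18, all higher, and for 3.22% of all genes. Their sums were 6420, 3363 and 2530 CPM in WT and 7046, 4780 and 8130 CPM in Rhbdf2-/- libraries, which overlap. All 10 listed distal nephron markers were lower, with a median of -0.55, and 1 of them had an unadjusted p below 0.05. They summed to 8809, 6627 and 2024 CPM against 3708, 3869 and 3487 CPM. Umod, the uromodulin gene of the thick ascending limb, was at 4570, 3330 and 972 CPM against 1930, 2080 and 1800 CPM. No marker of these lists was called. Of T and NK cell markers, 11 of 11 listed were above 0 (median 0.42), summing to 294 to 407 CPM in WT and 324 to 826 CPM in Rhbdf2-/- libraries. Cd4 alone made up a large part of these sums, at 180 to 272 CPM against 238 to 414 CPM, so they do not measure the content of these cells. Cd3d, a chain of the T-cell receptor complex, was at 4.06 to 10.7 CPM against 4.61 to 27.0 CPM. Macrophage markers summed to 34488 to 46899 CPM against 38033 to 42983 CPM, with 0 of 23 called. Of 10 endothelial markers 3 were listed, all above 0 (median 0.36). Groups did not overlap for 2 of the 3, as for 10.4% of all genes, and 3 genes are too few to read this as a result. Among the 2 was Pecam1, an endothelial adhesion molecule, at 21.0 to 22.3 CPM in WT and 23.3 to 41.6 CPM in Rhbdf2-/- libraries, so its nearest values were close. Of the other lists, monocyte, neutrophil, dendritic, B-cell, endothelial, mural and erythroid markers had 0 called genes, and 0 of 5 podocyte markers were listed. The part of these cells in the results above was not tested. In bulk libraries fewer cells of a type and less RNA per cell cannot be told apart.

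How large a change the 6 libraries leave room for was read from the 95% intervals. Of 10523 genes, 9024 (85.8%) had an interval within a 2-fold change of CPM+1 in either direction and 5847 (55.6%) within a 1.5-fold change. The median half-width was 0.41 on the log2(CPM+1) scale, which is a factor of 1.33. Genes above 5 and up to 20 CPM had a median half-width of 0.47, those up to 100 CPM 0.34, and those up to 1000 CPM 0.32. For the 1386 genes at or below 5 CPM it was 0.65, on a scale that compresses low values, and 64.1% of their intervals lay within a 2-fold change. The 87 genes above 1000 CPM had a median of 0.44, and the widest of them was Umod, at 1.45. The widest interval of all belonged to Gm10800, a predicted gene that varied widely within every group. It ran from 1.03 to 98.5 CPM in Rhbdf2-/- and 1.66 to 38 CPM in WT libraries. Fcgr2b-/- libraries had 1.14 to 56.2 CPM and double-mutant libraries 0.195 to 16.7 CPM. Each interval holds for its gene alone, and its width rests on the spread within every group of the 12 libraries. Gpnmb had the widest interval at or below 5 CPM, with a half-width of 2.16. It was at 0.418 to 1.72 CPM in WT and 0.43 to 2.13 CPM in Rhbdf2-/- libraries, but at 13.5 to 2850 CPM in the other groups. With only the 6 libraries fitted, the median half-width was 0.39 and 9108 intervals (86.6%) lay within a 2-fold change.

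**Figure D5:**
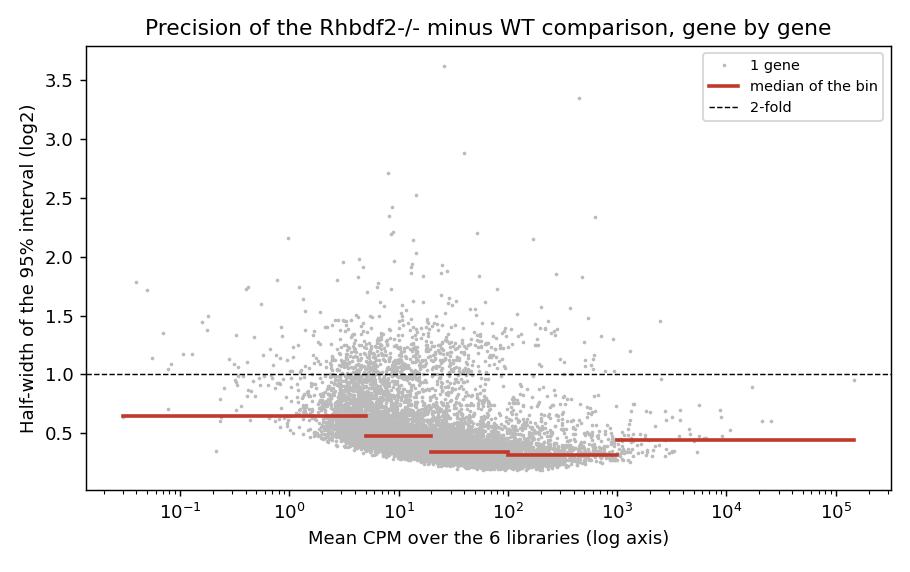
Half-width of the 95% interval of the Rhbdf2-/- minus WT difference (log2) for each of 10523 genes (grey) against mean CPM over the 6 libraries (log axis), with the median of each of 5 bins (red). Most genes lie under the dashed line of a 2-fold change, and medians fall from 0.65 at or below 5 CPM to 0.32 at 100 to 1000 CPM.

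Rhbdf2 loss was also measured in other libraries, labelled Fcgr2b-/- and double mutant. FcγRIIb, the product of Fcgr2b, restrains Fc receptor signalling, and mice without it are a lupus model. Fcgr2b stayed detectable under both labels, at 287, 256 and 382 CPM in Fcgr2b-/- and 455, 479 and 550 CPM in double-mutant libraries, against 539 to 715 CPM in WT. It was thus below every WT library under the Fcgr2b-/- label, overlapped with WT under the double-mutant label, and was higher in double-mutant than in Fcgr2b-/- libraries (difference 0.70, adjusted p = 0.00789 in limma). No source used here states the deleted part of Fcgr2b, so these levels do not check the genotype, and the groups are called by their labels. In double-mutant against Fcgr2b-/- macrophages 3113 genes were called (29.6% of those tested), 15.8% being higher in the double mutant. The difference between the 2 effects of Rhbdf2 loss, tested as an interaction, was called for 1255 genes (11.9%). This count changed with the libraries used, from 517 to 1304 when each macrophage library was left out in turn. It fell to 517 without Rhbdf2-/- replicate a, 647 without WT replicate b and 695 without Rhbdf2-/- replicate b. Without 1 double-mutant library it was 705, and without 1 Fcgr2b-/- library 788. Of the 517, 516 were also called with all libraries. The cause of these falls was not tested. The sort gate was the same in all groups, but Fcgr2b-/- libraries had higher summed handling-stress genes, at 6886 to 8806 CPM against 3445 to 4327 CPM in double mutants, and the part of this in the calls was not tested.

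Of the 20 genes with the smallest p in Rhbdf2-/- against WT, 9 were called between the libraries labelled double mutant and Fcgr2b-/-, and all 9 were higher in the former. Over all genes, 29.6% were called in this contrast, and 15.8% were called and higher in the double mutant. Values of 4 of the 9 follow. Vnn3 was at 6.85 to 11.2 CPM in Fcgr2b-/- and 21.3 to 32.0 CPM in double-mutant macrophages (difference 1.5, adjusted p = 0.000624 in limma). H2-D1 was at no more than 409 CPM against 685 to 876 CPM (1.05, adjusted p = 0.000213), and Cd300ld at 224 to 366 CPM against 535 to 959 CPM (1.28, adjusted p = 0.00179). Mxra7 was at 0.339 to 0.574 CPM against 1.49 to 4.12 CPM (1.23, adjusted p = 0.00757). For none of these 4 was the interaction called (adjusted p from 0.0907 to 0.742). It was called for 7 of the 20, against 11.9% of all genes. Among the 7 was St6galnac1, which is also among the 9. The 20 were chosen by a contrast that enters the interaction, so these counts are a description.

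The genes closest to Rhbdf2 differed among the Fcgr2b-/- libraries themselves. In the 3 libraries, kept in 1 order here, BC018473 was at 0.487, 361 and 317 CPM, St6galnac2 at 4.88, 37.0 and 40.1 CPM, and St6galnac1 at 0.0586, 3.14 and 1.93 CPM. The first of them was thus near or below the WT level of all 3 genes, and the others lay between WT and Rhbdf2-/- levels. The reason for this was not tested. Cant1 (14.0, 46.3 and 47.8 CPM) and Coro2a on chromosome 4 (5.6, 31.2 and 38.9 CPM) were also lowest in the first library. Double-mutant libraries were at 421 to 1020 CPM for BC018473, 51.5 to 59.9 CPM for St6galnac2 and 7.33 to 12.1 CPM for St6galnac1. The St6galnac1 difference between double mutant and Fcgr2b-/- was 2.15 (adjusted p = 0.00206 in limma) and 1.58 without the first library (adjusted p = 0.00133). That of Cant1, 1.18 with an adjusted p of 0.0423, was no longer called without it (0.62, adjusted p = 0.114), nor was that of 1810032O08Rik (0.86, adjusted p = 0.0442, and 0.47, adjusted p = 0.135). Srsf2, low in Rhbdf2-/- cells, was at 2.3 to 4.0 CPM in Fcgr2b-/- and 2.80 to 3.89 CPM in double-mutant libraries, so it was below the WT level in the libraries labelled Fcgr2b-/- alone as well (interaction 1.25, adjusted p = 0.0202).

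In whole kidney, the same genotypes (4 libraries each, normalized separately) gave 0 called genes of 12315 (0%), with 272 at an unadjusted p below 0.05 (limma), and 0 in the authors' deposited table. BC018473 was at 12.4, 10.7, 8.30 and 5.87 CPM in WT and 34.2, 19.4, 28.5 and 20.7 CPM in Rhbdf2-/- kidneys (difference 1.38, interval 0.04 to 2.73, adjusted p = 1.00). St6galnac2 and Mxra7 had lower means in Rhbdf2-/- kidneys, opposite in direction to macrophages and not called. St6galnac2 was at 123 to 164 CPM against 106 to 135 CPM (difference -0.26, interval -0.49 to -0.03). Mxra7 was at 7.87 to 8.96 CPM against 4.86 to 7.43 CPM (difference -0.45, interval -0.86 to -0.05). Srsf2 overlapped between groups, at 4.34 to 5.93 CPM against 4.6 to 5.84 CPM. Rhbdf2 was at 12.9 CPM in all 4 WT kidneys and at 10.8 to 12.3 CPM in Rhbdf2-/- kidneys (difference -0.13, interval -0.50 to 0.24).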

How the data were processed

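Genotype labels set the groups. Expression was deposited as log2 CPM for each library, per the file headers. Per the submitters' processing notes the builds were mm10 and GRCm38, and no source used here names the aligner, the counter or the use of strand. Headings of the authors' deposited table, which point to edgeR, give for each comparison a log2 fold change, a p-value, an FDR and an F statistic, a score not used here. Of 1057 low values, 100% were whole reads after removal of the prior (tolerance 0.1 read). Because the unit is log2 CPM, log2(CPM+1) was fitted with limma 3.58.1 (R 4.3.3, trend, all 12 macrophage libraries), in place of a count test. Genes with a Benjamini-Hochberg adjusted p below 0.05 are called, and log2(CPM+1) understates changes of low genes. An exact permutation test of 3 against 3 cannot go below 0.1. The fit was tested on simulated data. Lists were matched by symbol, Emr1 and Igj under older ones. Strands and overlaps are from GENCODE vM21. Named were Rhbdf2, Fcgr2b, Adam17, Rhbdf1, Frmd8, Tnf, Hbegf and Egfr, the called genes, the 20 with the smallest p, and up to 4 of each list with those whose role it is fixed for. The 20 leave out predicted genes, clone names and immunoglobulin segments, and no abundance filter was applied to them. Members and lists were chosen with earlier results of these data known. All sample columns were used, and identical libraries numbered 0.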

Additional observations from a re-analysis of the deposited data

Results flagged for a closer look

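Of the genes named near Rhbdf2 or by the smallest p, 8 had a called interaction in the limma fit, as had 11.9% of all genes. The interaction is the contrast of libraries labelled double mutant and Fcgr2b-/- minus that of Rhbdf2-/- and WT on the log2(CPM+1) scale. Genes chosen for a wide difference between Rhbdf2-/- and WT are moved by that choice alone towards an interaction of opposite sign. These calls are therefore a description and cannot decide whether the effect differs between backgrounds. St6galnac1 gave -2.76 (adjusted p = 0.0125), being higher without Rhbdf2 in both backgrounds and by less under the Fcgr2b-/- labels. Gm11735 gave -1.47 (adjusted p = 0.0339). Cd300lb and Cd300lf gave -1.71 (adjusted p = 0.0263) and -1.78 (adjusted p = 0.0164). Per1, a clock gene, gave -2.47 (adjusted p = 0.0129), with 12.8 to 32.6 CPM in double-mutant and 30.7 to 45.0 CPM in Fcgr2b-/- macrophages. Relt gave -1.08 (adjusted p = 0.0195) and Snx8 -0.86 (adjusted p = 0.0135). Srsf2 gave 1.25 (adjusted p = 0.0202). Without the Fcgr2b-/- library that stood near WT for genes beside Rhbdf2, the interaction was also called for St6galnac2 (-3.60, adjusted p = 0.00248, against 0.0601 with it), BC018473 (-7.96, adjusted p = 8.39e-05, against 0.131) and Coro2a (-2.08, adjusted p = 0.0154, against 0.313). In kidney, 1 Rhbdf2-/- library had 135 CPM of St6galnac2 and lay apart from the other 3 at 106 to 109 CPM, where the criterion used picks about 1 of 20 groups by chance and more than 1 gene and group were examined.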

How the results depend on the processing

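In macrophages, 2 genes were called between Rhbdf2-/- and WT (limma). The count was 4 with log2(CPM+5), 5 with only the 2 groups in the fit and 5 with no trend, each holding both genes. It was 0 with voom and 0 in the authors' deposited FDR. Genes at an unadjusted p below 0.05 numbered 466 with only the 2 groups, 347 with voom and 323 in the deposited table. It stayed at 2 or 3 when a library was left out (both genes kept), under log2(CPM+0.25), a minimum mean CPM of 1, which removed no gene, and equal library medians. Without WT replicate 2 and Rhbdf2-/- replicate 3 together, chosen after seeing the data, it was 2, of which 1 was shared. Every gene called in any alternative lay on chromosome 11 except Igkv9-120, an immunoglobulin segment on chromosome 6 called without those 2 libraries (adjusted p = 0.0296). The adjusted p of St6galnac1 ran from 1.01e-05 to 0.496 over 15 alternatives and passed in 14, and that of Gm11735 from 0.000341 to 0.143, passing in 13. The letters a and b did not pair the samples (correlation of deviations 0.25 and -0.05), and a fit with them as a replicate block gave 2 calls and 9014 intervals within a 2-fold change. That number was 9024 in the main fit and ran from 8459 to 8686 without 1 library. Calls of the interaction ran from 517 to 1304 when each of the 12 macrophage libraries was left out in turn, against 1255. The Fcgr2b-/- and double-mutant libraries were added to this after seeing the data. The count fell to 647 without WT replicate b, 517 without Rhbdf2-/- replicate a, 695 without Rhbdf2-/- replicate b, 788 without 1 Fcgr2b-/- library and 705 without 1 double-mutant library. The cause was not tested. Calls between double mutant and Fcgr2b-/- ran from 2217 to 2924 without 1 library, against 3113. In kidney the count was 0 in every alternative. The planned edgeR and DESeq2 fits were not run, because the files hold log2 CPM. At or below 5 CPM few reads limit what can be seen.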
